A study of Mus musculus with 6 samples.

Results

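The genes described here are 31 markers of endothelial cells, the cells that line blood vessels, measured in mouse heart tissue. They were chosen by gene name, with earlier results of these data known. They encode endothelial junction proteins, receptors, transcription factors and proteins of the vessel wall. All 31 were found among the 54352 rows of the table used, and all 31 passed the filter of a mean level of at least 5 that left 13094 genes for testing. Levels are regularized log (rlog) values, a log2 scale on which each value is drawn towards the mean of its gene, so that differences are smaller than on the scale of counts. Endothelial cells were not sorted, and in whole heart tissue fewer cells of a type and less RNA per cell cannot be told apart.

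Sequencing covered 6 libraries in 3 groups of 2. T2D dnMCUb libraries came from C57BL/6 mice made diabetic at an age of 12 weeks, with food that supplied 60% of calories as fat and 1 dose of streptozotocin (STZ) at 75 mg/kg. These mice then received, by the jugular vein, an adeno-associated virus (AAV) for a FLAG-tagged mouse MCUb that carries a pair of point mutations and is called dominant negative in the labels. MCUb is a subunit of the mitochondrial calcium uniporter. T2D empty vector libraries came from mice with the same diet, STZ dose and route of injection and a virus without cargo. Control mice stayed on regular chow and received no vector, so they differ from both other groups in diet, STZ and virus together. T2D was defined at 20 weeks of diet, the virus was given 16 to 18 weeks after STZ in a volume of 100 µl, and hearts were taken 4 weeks later, 5 to 6 months after induction. The sources used here do not give the strain of the control mice, the sex of any mouse, the promoter in the vector, or whether each library had its own animal. The p-values therefore measure only the spread between these libraries, which may be technical.

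Endothelial cells are held together by VE-cadherin and claudin junctions and depend on VEGF and angiopoietin signals. These signals act through the receptor kinases Kdr, Flt1 and Tek, and Tie1 is a co-receptor of Tek. Notch signals between neighbouring cells and factors of the SoxF, ETS and KLF families set arterial, venous and capillary identity, and Klf2 and Klf4 respond to blood flow. In the heart the capillary bed supplies nearly every muscle cell with fatty acids, which Gpihbp1 helps to release by carrying lipoprotein lipase to the capillary surface. Loss or malfunction of small vessels is a known feature of the diabetic heart.

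No endothelial gene passed the test in any comparison. In limma's test with Benjamini-Hochberg adjustment over all genes tested, 0 of 31 were called between T2D dnMCUb and T2D empty vector (0% of all genes), 0 between T2D empty vector and control (0%), and 0 between T2D dnMCUb and control (0.0687%, or 9 genes). At an unadjusted p under 0.05 the counts were 2 (5.64% of all genes), 3 (6.13%) and 6 (11.4%), in the same order. Differences were small and mostly upward in T2D dnMCUb. Against T2D empty vector 26 of 31 genes were higher, at a median log2 difference of 0.05, where 49.5% of all genes were higher. Against control 25 of 31 were higher with a median of 0.06, where 48.5% of all genes were. T2D empty vector was nearer to control, with 19 of 31 higher and a median of 0.02 (48.2% of all genes higher). The median over all genes was between -0.0025 and -0.00051 in the 3 comparisons.

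That upward lean was carried largely by 2 libraries. T2D dnMCUb library 1 was the highest of all 6 in 19 of 31 endothelial genes and in 22.6% of all genes, and control library 1 was the lowest in 18 of 31 and in 16.1% of all genes. T2D dnMCUb library 1 also stood apart from the other libraries over all genes, at 10.8 on a first principal component holding 46.7% of the variance, with the others between -4.42 and 2.69. Within T2D dnMCUb, library 1 was above library 2 in 26 of 31 endothelial genes, against 45.7% of all genes. Library 1 was above library 2 in 14 of 31 within T2D empty vector (51.7% of all genes) and in 2 of 31 within control (51.1%). The gap between the 2 libraries of a group had a median over the 31 genes of 0.10 in T2D dnMCUb, 0.07 in T2D empty vector and 0.09 in control.

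The lean shrank without either of those libraries. Without T2D dnMCUb library 1, 15 of 31 genes were higher in T2D dnMCUb hearts than in T2D empty vector hearts, with a median of -0.00034, and 19 were higher than in control, with a median of 0.02. Without control library 1, 18 of 31 were higher in T2D dnMCUb than in control (median 0.01), and 13 were higher in T2D empty vector than in control (median -0.01). Without T2D dnMCUb library 2, 3 of 31 (Vwf, Sox18 and Klf4) passed against control, as did 743 of all genes (5.67%), in a fit where library 1 alone stands for its group and is assumed to vary as the others do. The range of a gene over the 6 libraries had a median of 0.19 for the endothelial genes, against 0.12 for all genes.

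**Figure D1:**
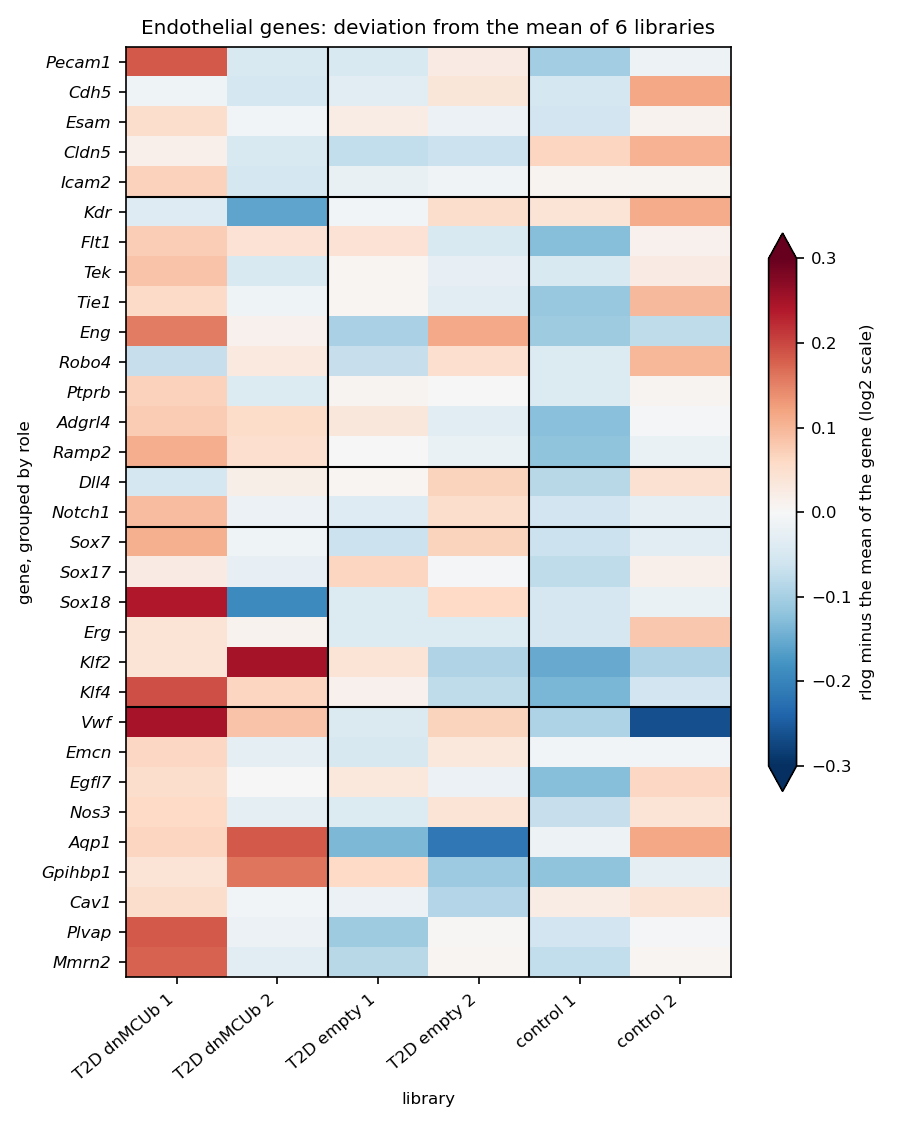
Deviation of each of the 31 endothelial genes (rows, grouped by role) from its mean over 6 libraries (columns), in log2 units, red for higher and blue for lower. Most rows are red in T2D dnMCUb library 1 and blue in control library 1, which were the highest in 19 genes and the lowest in 18.

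The level of Mcub, the gene carried by the vector, did not separate the groups. Mcub stood at 5.62 and 5.47 in T2D dnMCUb hearts, 5.48 and 5.46 in T2D empty vector hearts and 5.42 and 5.47 in control hearts, so the groups overlap, and its difference between T2D dnMCUb and T2D empty vector was 0.08 (SE 0.05, limma adjusted p = 0.888). Directions that involve T2D dnMCUb therefore rest on the labels. Heart muscle was present as labelled, with a summed level of 20.68 to 21.11 over 10 cardiomyocyte genes in the 6 libraries (log2 of the sum). The mean level of the 31 endothelial genes ran from 7.14 to 12.83, and none was listed at 0.

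**Figure D2:**
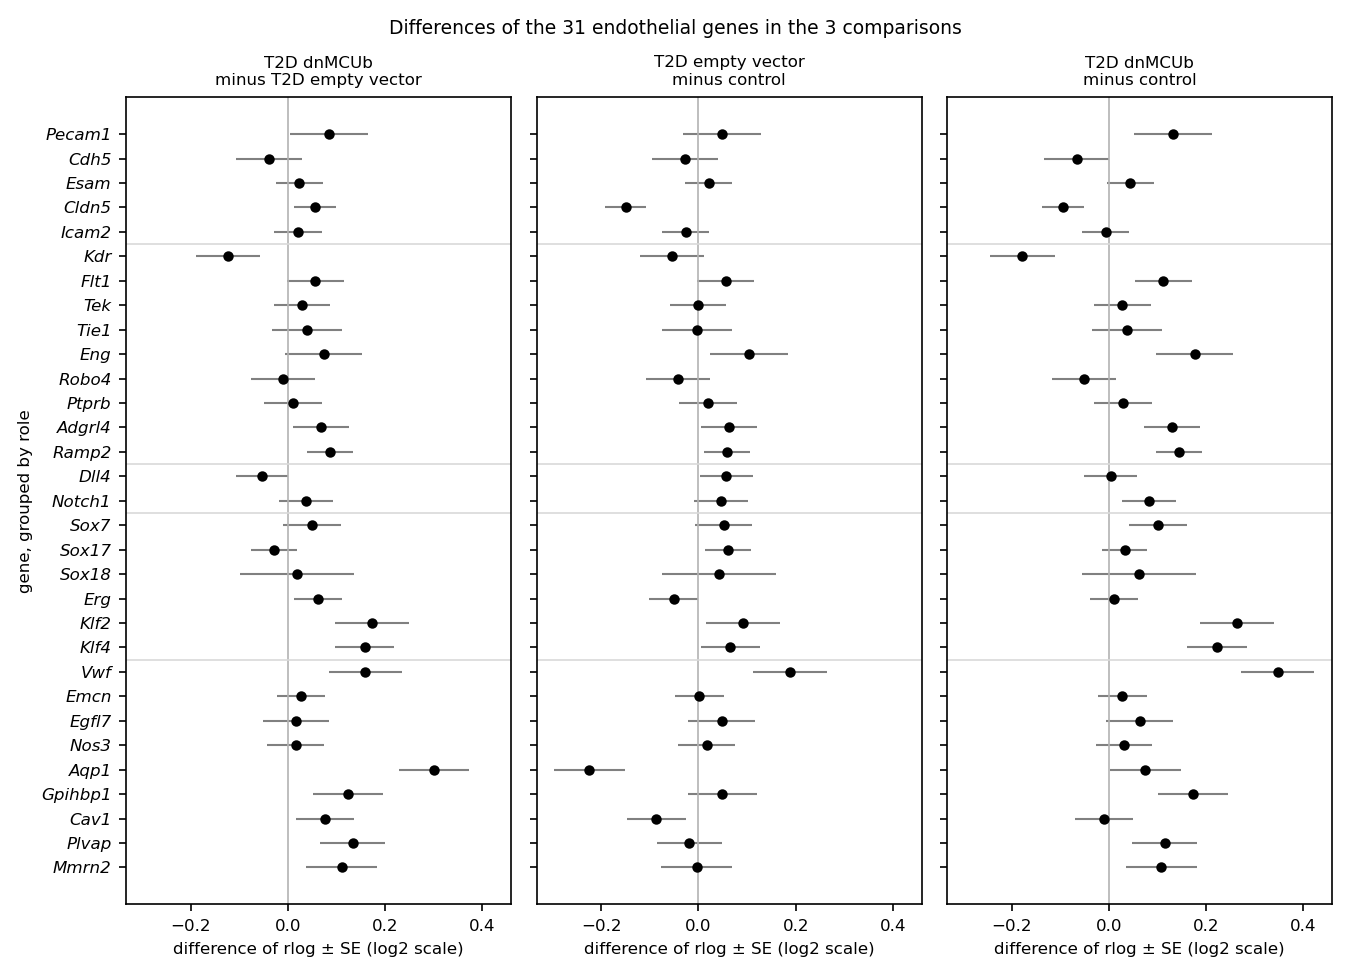
Log2 differences (points) with limma's standard errors (bars) for the 31 endothelial genes in 3 comparisons. The differences lie between -0.22 and 0.35, and in many genes the bar crosses 0.

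Junction and adhesion genes did not move as a group. Of the 5, 4 were higher in T2D dnMCUb hearts than in T2D empty vector hearts, 2 in T2D empty vector than in control, and 2 in T2D dnMCUb than in control. Cldn5 encodes claudin-5, the main tight junction claudin of endothelium, and its row lies on the plus strand of chromosome 16, from 18776847 to 18778262 (GRCm38). Cldn5 stood at 8.82 and 8.76 in T2D dnMCUb hearts, 8.73 and 8.74 in T2D empty vector hearts and 8.87 and 8.91 in control hearts. Both control libraries were above all 4 diabetic ones, and the T2D dnMCUb libraries were above the T2D empty vector ones. Its difference between T2D empty vector and control was -0.15 (SE 0.04, adjusted p = 0.684), the smallest p of any endothelial gene in that comparison, and between T2D dnMCUb and control it was -0.09 (SE 0.04, adjusted p = 0.453).

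Pecam1 encodes CD31, an adhesion molecule between endothelial cells. It stood at 11.64 and 11.41 in T2D dnMCUb hearts, 11.41 and 11.48 in T2D empty vector hearts and 11.35 and 11.44 in control hearts. Only T2D dnMCUb library 1 was above the rest, and the groups overlap. The difference between T2D dnMCUb and T2D empty vector was 0.08 (SE 0.08, adjusted p = 0.920) with both libraries and -0.03 without T2D dnMCUb library 1. Cdh5, which encodes VE-cadherin of the adherens junction, stood at 11.71 and 11.67 in T2D dnMCUb hearts, 11.69 and 11.76 in T2D empty vector hearts and 11.67 and 11.84 in control hearts. The groups overlap here too, and the difference between T2D dnMCUb and control was -0.07 (SE 0.07), which is 0.02 without control library 2. Esam, a junction adhesion molecule, and Icam2, a ligand of leukocyte integrins, differed by at most 0.04 between any groups (for Esam 0.04 and for Icam2 -0.0063 between T2D dnMCUb and control).

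Receptor genes differed in direction among themselves. Of the 9, 7 were higher in T2D dnMCUb hearts than in T2D empty vector hearts, 5 in T2D empty vector than in control and 7 in T2D dnMCUb than in control, and none passed. Kdr encodes VEGFR2, the main signalling receptor for VEGF-A (minus strand of chromosome 5, from 75932827 to 75978458). It stood at 12.58 and 12.46 in T2D dnMCUb hearts, 12.61 and 12.67 in T2D empty vector hearts and 12.66 and 12.73 in control hearts. Both T2D dnMCUb libraries were below the other 4, while T2D empty vector library 2 was above control library 1. Kdr was the only endothelial gene with T2D dnMCUb below T2D empty vector without overlap (16.5% of all genes), at -0.12 (SE 0.07, adjusted p = 0.884). Against control it was at -0.18 (SE 0.07, adjusted p = 0.383), and at -0.24 and -0.12 without T2D dnMCUb library 1 and library 2. In the authors' deposited table its log2 fold between T2D dnMCUb and control was -0.26, with an adjusted p of 0.801.

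The other VEGF receptor gene went the other way. Flt1 encodes VEGFR1, which binds VEGF-A tightly and signals weakly, and it was at 0.06 in T2D dnMCUb against T2D empty vector and 0.11 against control (SE 0.06, adjusted p = 0.502). The row for Flt1 is a processed transcript of 2026 bases, where the longest annotated transcript has 6895, so this value may not stand for the full receptor. Tek encodes the angiopoietin receptor and Tie1 its co-receptor. Tie1 stood at 10.92 and 10.85 in T2D dnMCUb hearts, 10.87 and 10.83 in T2D empty vector hearts and 10.75 and 10.96 in control hearts. Both extremes of Tie1 were control libraries, and its differences of 0.04, -0.0027 and 0.04 between T2D dnMCUb and T2D empty vector, T2D empty vector and control, and T2D dnMCUb and control were within the SE of 0.07. Tek (0.03 between T2D dnMCUb and control) and Ptprb (0.03), the gene of the phosphatase VE-PTP that opposes Tek, differed by less than their SE of 0.06.

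Eng encodes endoglin, a co-receptor for BMP9 and TGF-beta. It stood at 11.04 and 10.90 in T2D dnMCUb hearts, 10.79 and 11.00 in T2D empty vector hearts and 10.78 and 10.81 in control hearts. T2D dnMCUb lay above control without overlap, while T2D empty vector library 1 lay among the control libraries. Its difference between T2D dnMCUb and control was 0.18 (SE 0.08, adjusted p = 0.452) and between T2D empty vector and control 0.10 (SE 0.08, adjusted p = 0.864), or -0.0018 without T2D empty vector library 2. Ramp2, which makes Calcrl a receptor for adrenomedullin, stood at 8.10 and 8.04 in T2D dnMCUb hearts, 7.99 and 7.97 in T2D empty vector hearts and 7.87 and 7.97 in control hearts. T2D dnMCUb was above all 4 other libraries, at 0.15 against control (SE 0.05, adjusted p = 0.320). Adgrl4, an orphan adhesion receptor of vessels also known as Eltd1, was at 0.13 (SE 0.06, adjusted p = 0.447). Robo4, a guidance receptor that stabilizes vessels, was at -0.05 (SE 0.07).

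**Figure D3:**
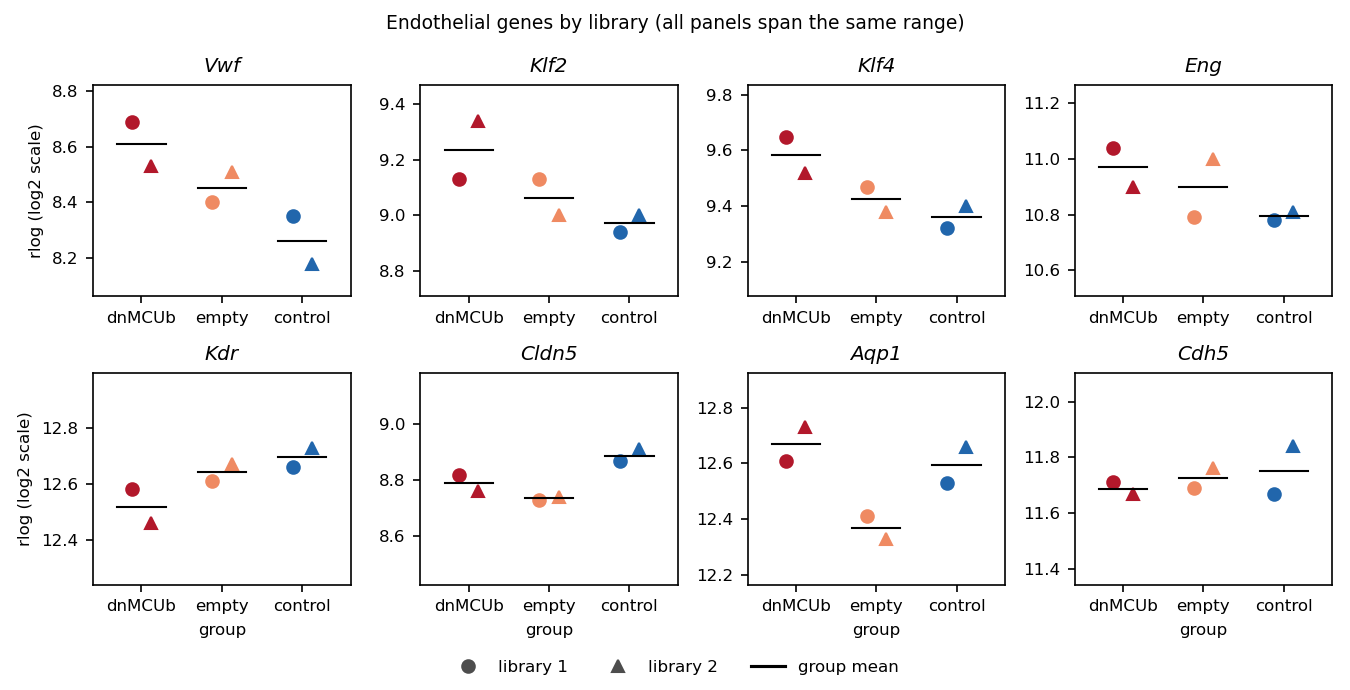
rlog of 8 endothelial genes in each library, with circles for library 1, triangles for library 2 and bars for group means, on axes of equal span. Vwf shows the 3 groups without overlap, Aqp1 shows T2D empty vector below both other groups, and Cdh5 shows overlapping groups.

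Neither gene of the Notch pair passed in any comparison. Dll4, the Notch ligand of arterial and sprouting endothelium, stood at 8.85 and 8.92 in T2D dnMCUb hearts, 8.91 and 8.97 in T2D empty vector hearts and 8.82 and 8.95 in control hearts. The 3 groups overlap, and its difference between T2D dnMCUb and T2D empty vector was -0.05 (SE 0.05, adjusted p = 0.924). Notch1, its receptor, stood at 10.34 and 10.23 in T2D dnMCUb hearts, 10.21 and 10.30 in T2D empty vector hearts and 10.19 and 10.22 in control hearts. T2D dnMCUb lay above control without overlap for Notch1, at 0.08 (SE 0.06, adjusted p = 0.585). Among 12 further genes of the Notch pathway, 6 were higher in T2D dnMCUb hearts than in T2D empty vector hearts, 7 in T2D empty vector than in control and 8 in T2D dnMCUb than in control, with 0 called in each (3 of 12 in the first without T2D dnMCUb library 1). Their smallest p values belonged to the ligand genes Dll1 (0.15 in T2D dnMCUb against T2D empty vector) and Jag1 (0.09 in T2D empty vector against control), to Rbpj, the DNA-binding partner of Notch (0.08 in T2D empty vector against control), and to the receptor genes Notch3 (-0.13 in T2D dnMCUb against T2D empty vector) and Notch4 (0.08 in T2D dnMCUb against control).

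All 6 transcription factor genes were higher in T2D dnMCUb than in control, with a median of 0.08, and 5 of 6 were higher than in T2D empty vector. Library 2 of T2D dnMCUb was below the control mean for Sox18 (8.84 against 8.99) and level with it for Erg (8.72 in both). It was above that mean for the rest of the 6. Klf2 and Klf4 had the largest differences of the group, and none of the 6 passed. Both are zinc finger factors that laminar flow induces in endothelium, and both act against inflammation there. Klf2 stood at 9.13 and 9.34 in T2D dnMCUb hearts, 9.13 and 9.0 in T2D empty vector hearts and 8.94 and 9.0 in control hearts. T2D dnMCUb lay above control without overlap, and T2D empty vector overlapped with both. Its difference between T2D dnMCUb and control was 0.26 (SE 0.08, adjusted p = 0.277), and between T2D dnMCUb and T2D empty vector 0.17 (SE 0.08, adjusted p = 0.869). T2D dnMCUb library 2 carried it: the difference from control was 0.37 without library 1 (adjusted p = 0.0506) and 0.16 without library 2.

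Klf4 stood at 9.65 and 9.52 in T2D dnMCUb hearts, 9.47 and 9.38 in T2D empty vector hearts and 9.32 and 9.40 in control hearts. Both T2D dnMCUb libraries were above the other 4, while T2D empty vector and control overlapped. Klf4 was at 0.22 against control (SE 0.06, adjusted p = 0.249) and 0.16 against T2D empty vector (SE 0.06, adjusted p = 0.869). Without T2D dnMCUb library 1 the difference from control was 0.16 (adjusted p = 0.414), and without library 2 it was 0.29 (adjusted p = 0.0350). Log2 folds between T2D dnMCUb and control in the authors' deposited table were 0.53 for Klf2 (adjusted p = 0.288) and 0.42 for Klf4 (adjusted p = 0.511).

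Immediate early genes, which respond within minutes to stimulation or to tissue handling, were also higher there. All 11 tested were higher in T2D dnMCUb than in control without overlap (20.2% of all genes), with a median of 0.24. Of the 11, 9 had an unadjusted p under 0.05 (11.4% of all genes, in either direction), and 0 were called. The median was 0.14 without T2D dnMCUb library 2. Ier3 (0.24) and Egr1 (0.20) had the smallest p values, while Ier2 (0.14) was among them in T2D dnMCUb against T2D empty vector and Jun (0.17) in T2D empty vector against control. The mean deviation of that list was 0.04 and 0.21 in T2D dnMCUb hearts, 0.03 and -0.05 in T2D empty vector hearts and -0.15 and -0.08 in control hearts. T2D dnMCUb library 2 was the highest for that list and for Klf2, while library 1 was the highest for Klf4. The part of that list in the values of Klf2 and Klf4 was not tested.

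The promoters of Klf2 and Klf4, and of Aqp1 described below, are printed since these 3 had, among the genes with a matched promoter, the largest differences between T2D dnMCUb and T2D empty vector. They come from RefSeq (GRCm38.p6), each with 250 bases before and 50 after the annotated start, on the strand of the gene. Capitals mark the core CACCC of KLF binding sites on either strand (GGGTG on the other strand) and the core of MEF2 factors (CTA and TAG with any 4 bases between them), known activators of Klf2 in endothelium. They span chr8:72318812-72319111 (plus strand) for Klf2, chr4:55532426-55532725 (minus strand) for Klf4 and chr6:55336049-55336348 (plus strand) for Aqp1.
Klf2: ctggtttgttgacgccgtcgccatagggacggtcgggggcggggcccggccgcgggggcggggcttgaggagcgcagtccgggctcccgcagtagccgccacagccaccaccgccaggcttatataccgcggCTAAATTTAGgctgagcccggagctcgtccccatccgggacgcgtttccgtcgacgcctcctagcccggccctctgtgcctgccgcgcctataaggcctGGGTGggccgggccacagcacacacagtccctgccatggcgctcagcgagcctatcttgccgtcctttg
Klf4: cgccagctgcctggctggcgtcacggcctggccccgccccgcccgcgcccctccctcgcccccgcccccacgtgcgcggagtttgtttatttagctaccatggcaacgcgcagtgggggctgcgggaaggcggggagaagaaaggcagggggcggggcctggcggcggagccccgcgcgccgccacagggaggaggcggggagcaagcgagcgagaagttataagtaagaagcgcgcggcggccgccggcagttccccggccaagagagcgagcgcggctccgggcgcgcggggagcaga
Aqp1: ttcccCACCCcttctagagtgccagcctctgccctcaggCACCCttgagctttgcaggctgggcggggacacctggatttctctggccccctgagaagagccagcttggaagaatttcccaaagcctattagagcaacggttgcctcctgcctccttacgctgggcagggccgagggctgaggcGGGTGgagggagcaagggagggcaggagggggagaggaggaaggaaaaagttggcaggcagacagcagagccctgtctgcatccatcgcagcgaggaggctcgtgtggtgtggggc

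The Klf2 window holds 1 MEF2 core and 1 KLF core, the Klf4 window holds neither, and the Aqp1 window holds 3 KLF cores. Promoters were matched for 17 of the 31 genes, with 22 windows in all. The MEF2 core was in 1 of the 22, that of Klf2, against 3.69% of 32851 promoters. The KLF core was in 16 of 22, against 57.5% of promoters, and GGAA, the core of ETS factors such as Erg, was in 21 of 22, against 96%. Cores were counted on both strands, each core on its own. These matches describe the letters of the windows and no binding was measured.

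Sox7, Sox17 and Sox18 are the SoxF factors of vessel and lymphatic development, and Erg is an ETS factor that keeps endothelial identity. Sox17 stood at 7.95 and 7.90 in T2D dnMCUb hearts, 7.99 and 7.92 in T2D empty vector hearts and 7.85 and 7.94 in control hearts. The groups overlap, with differences of -0.03 between T2D dnMCUb and T2D empty vector and 0.06 between T2D empty vector and control (SE 0.05, adjusted p = 0.865). Sox18 had the widest gap within a group of any endothelial gene, with T2D dnMCUb at 9.27 and 8.84, T2D empty vector at 8.99 and 9.09 and control at 8.98 and 9.01. Both extremes of Sox18 were T2D dnMCUb libraries, and its difference from control was 0.06 (SE 0.12), or -0.15 and 0.27 without library 1 and library 2 of T2D dnMCUb. Sox7 was at 0.10 between T2D dnMCUb and control (SE 0.06, adjusted p = 0.540), and Erg at 0.01.

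Genes of the vessel wall, of transport and of secreted proteins held the largest differences. All 9 were higher in T2D dnMCUb hearts than in T2D empty vector hearts, with a median of 0.11, 5 of 9 in T2D empty vector than in control and 8 of 9 in T2D dnMCUb than in control. Library 2 of T2D dnMCUb was below the T2D empty vector mean for Emcn (9.82 against 9.84), Egfl7 (10.85 against 10.86) and Nos3 (9.47 against 9.50). It was above that mean for the rest of the 9. Vwf encodes von Willebrand factor, which binds platelets at injured vessels (plus strand of chromosome 6, from 125546774 to 125592174). It stood at 8.69 and 8.53 in T2D dnMCUb hearts, 8.40 and 8.51 in T2D empty vector hearts and 8.35 and 8.18 in control hearts. The 3 groups did not overlap, in the order T2D dnMCUb, T2D empty vector, control. Vwf was the 1 of 31 endothelial genes (3.23%) with that order, against 2.41% of all genes.

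Group levels of Vwf were 8.61 ± 0.11 in T2D dnMCUb, 8.45 ± 0.08 in T2D empty vector and 8.26 ± 0.12 in control (SD, n = 2). The difference between T2D dnMCUb and control was 0.35 (SE 0.08, limma adjusted p = 0.167), the largest of any endothelial gene. Between T2D empty vector and control it was 0.19 (SE 0.08, adjusted p = 0.806), and between T2D dnMCUb and T2D empty vector 0.16 (SE 0.08, adjusted p = 0.871). With 1 library left out at a time, the difference from control ran from 0.26 to 0.43 and was called without T2D dnMCUb library 2 (adjusted p = 0.0261). In the authors' deposited table, Vwf was the only endothelial gene with an adjusted p under 0.05, with a log2 fold of 0.82 between T2D dnMCUb and control (adjusted p = 0.0386), among 104 genes called there (0.357% of 29159). Between T2D dnMCUb and T2D empty vector 0 of the 31 were among the 9 genes that the authors' deposited table called (0.0311%), and between T2D empty vector and control 0 were among 72 (0.255%). The row for Vwf is a transcript of 1786 bases, while the longest annotated has 8834. Platelets also hold von Willebrand factor. Of the platelet genes listed, Gp9 (0.28 to 0.30), Itga2b (3.59 to 3.62) and Ppbp (3.87 to 3.95) lay below the filter. Pf4, which encodes platelet factor 4, passed it, at 8.01 and 7.89 in T2D dnMCUb hearts, 7.93 and 7.78 in T2D empty vector hearts and 7.81 and 7.82 in control hearts. T2D dnMCUb was above control without overlap for Pf4 as for Vwf, at 0.13 (SE 0.06, adjusted p = 0.463). Within T2D empty vector, library 1 was the higher for Pf4 and library 2 for Vwf. Pf4 thus stood far above the other platelet genes listed, and which heart cells gave its signal was not tested. The part of platelets in the values of Vwf was not tested either.

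Aqp1 encodes a water channel that heart capillaries and red cells share (plus strand of chromosome 6, from 55336432 to 55348555). It stood at 12.61 and 12.73 in T2D dnMCUb hearts, 12.41 and 12.33 in T2D empty vector hearts and 12.53 and 12.66 in control hearts. T2D empty vector was below both other groups without overlap, and T2D dnMCUb overlapped with control. Its difference between T2D dnMCUb and T2D empty vector was 0.30 (SE 0.07, adjusted p = 0.780), the smallest p of the endothelial genes there, and between T2D empty vector and control -0.22 (SE 0.07, adjusted p = 0.762). The authors' deposited table gave Aqp1 log2 folds of 0.44 (adjusted p = 0.361) and -0.33 (adjusted p = 0.0614) for those comparisons.

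Red cell genes went the same way as Aqp1 between groups, but not within control. All 5 were higher in T2D dnMCUb hearts than in T2D empty vector hearts without overlap (median 0.88; 15.6% of all genes), and all 5 were lower in T2D empty vector than in control (median -0.40), or 4 of 5 without control library 1 (median -0.01). Hbb-bs was at 1.13 and Hba-a2 at 0.88 in T2D dnMCUb against T2D empty vector, with 0 of 5 called. The mean deviation of the red cell list was 0.21 and 0.69 in T2D dnMCUb hearts, -0.45 and -0.41 in T2D empty vector hearts and 0.38 and -0.42 in control hearts. Control library 1 was thus the higher of its pair in red cell genes, while control library 2 was the higher in Aqp1 (12.53 and 12.66). Without T2D dnMCUb library 2, the higher of the pair in red cell genes, Aqp1 was at 0.24 against T2D empty vector (adjusted p = 0.178). The part of red cells in the values of Aqp1 was not tested.

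Cav1 encodes caveolin-1, the coat protein of caveolae, and stood at 12.88 and 12.82 in T2D dnMCUb hearts, 12.81 and 12.74 in T2D empty vector hearts and 12.85 and 12.87 in control hearts. T2D empty vector was the lowest group, below both others without overlap. Its difference between T2D empty vector and control was -0.09 (SE 0.06, adjusted p = 0.856). Gpihbp1 was at 0.17 between T2D dnMCUb and control (SE 0.07, adjusted p = 0.421), with T2D dnMCUb at 10.24 and 10.36, T2D empty vector at 10.26 and 10.09 and control at 10.08 and 10.17. T2D dnMCUb lay above control without overlap but not above T2D empty vector. Plvap, the protein of fenestral diaphragms, and Mmrn2, a matrix protein of vessels, were at 0.13 and 0.11 in T2D dnMCUb against T2D empty vector, and T2D dnMCUb library 1 was the highest library for both. Emcn, a sialomucin of capillaries and veins, Egfl7, a secreted factor that guides vessel tubes, and Nos3, the endothelial nitric oxide synthase, differed by 0.03, 0.06 and 0.03 between T2D dnMCUb and control, each within its SE.

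Over the 31 genes, T2D dnMCUb stood above T2D empty vector without overlap in 9 (15.6% of all genes) and below it in 1 (16.5%). T2D dnMCUb stood above control without overlap in 10 (20.2%) and below it in 2, Kdr and Cldn5 (22.7%). T2D empty vector stood above control in 1, Vwf (19.9%), and below it in 4, Cldn5, Aqp1, Cav1 and Icam2 (22.5%). Since both T2D groups are set against the same control libraries, and both comparisons of T2D dnMCUb use the same 2 libraries, these counts are not independent of each other.

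A list of partners of the VEGF, angiopoietin and adrenomedullin pathways did not lean one way. It also held genes of other vessel signals, among them Apln, Slit2 and Acvrl1. Of 20 tested, 10 were higher in T2D dnMCUb hearts than in T2D empty vector hearts, 8 in T2D empty vector than in control and 11 in T2D dnMCUb than in control, with 0 called. Apln, a ligand gene of sprouting endothelium, had the smallest p of these. It stood at 8.15 and 8.02 in T2D dnMCUb hearts, 8.16 and 8.22 in T2D empty vector hearts and 8.42 and 8.51 in control hearts. Both T2D groups were below control without overlap, by -0.38 (SE 0.06, adjusted p = 0.0625) in T2D dnMCUb and -0.27 (SE 0.06, adjusted p = 0.491) in T2D empty vector. Its call depends on the setting, with an adjusted p for T2D dnMCUb against control of 0.0338 under robust empirical Bayes, 0.0159 without T2D dnMCUb library 1 and 0.0246 without library 2. Acvrl1, the receptor partner of endoglin for BMP9, was at 0.17 in T2D dnMCUb against T2D empty vector (SE 0.04, adjusted p = 0.780), and the Flt1 ligand gene Pgf at 0.14 against control (SE 0.03, adjusted p = 0.193). Slit2, a guidance ligand, was at -0.24 in T2D empty vector against control (SE 0.11). In T2D dnMCUb against T2D empty vector Slit2 was at 0.32 (SE 0.11, adjusted p = 0.869).

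Other endothelial markers outside the 31 leaned the same way. Of 30 further capillary genes, 20 were higher in T2D dnMCUb hearts than in T2D empty vector hearts (median 0.03), 23 in T2D empty vector than in control (0.04) and 22 in T2D dnMCUb than in control (0.09), with 0 called. Against control 9 of them had an unadjusted p under 0.05 (11.4% of all genes, in either direction). Above control without overlap stood 14 (20.2% of all genes). Ly6a, which encodes Sca-1, was at 0.30 (SE 0.05, adjusted p = 0.0848) and Mgll, a lipase, at 0.19 (SE 0.05, adjusted p = 0.264). Slc9a3r2 was at 0.16 in T2D dnMCUb against T2D empty vector. Without T2D dnMCUb library 1 the counts were 15 of 30 against T2D empty vector and 18 of 30 against control, and without control library 1 they were 14 of 30 for T2D empty vector against control and 19 of 30 for T2D dnMCUb against control.

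Marker lists of vessel types had few members each. Of 9 arterial genes, 7 were higher in T2D dnMCUb hearts than in T2D empty vector hearts, or 3 of 9 without T2D dnMCUb library 1 (median -0.05). The smallest p values belonged to Sema3g (0.16 against control), Gja5 (0.16 against T2D empty vector), Fbln5 (0.25 against control) and Efnb2 (0.07 in T2D empty vector against control). Of 6 venous and activated genes, 3 were higher in T2D dnMCUb hearts than in T2D empty vector hearts, or 2 of 6 without T2D dnMCUb library 1, and 5 were higher than in control, or 4 of 6 without it. Against control Vcam1 was at 0.42 (SE 0.10, adjusted p = 0.208) and Sele, the E-selectin gene, at -0.07. In T2D empty vector against control, Nr2f2 (0.115) and Icam1 (0.13) had the smallest p values of that list. Of 7 lymphatic genes, 6 were higher in T2D dnMCUb hearts than in T2D empty vector hearts, or 5 of 7 without T2D dnMCUb library 1 (median 0.13 with it and 0.07 without it). Lyve1 (0.32) and Mmrn1 (0.30) had the smallest p values there, while Prox1, the factor that sets lymphatic identity, was at -0.17 against control (SE 0.04, adjusted p = 0.210) and Pdpn was at 0.09 in T2D empty vector against control. Prox1 was lowest in T2D dnMCUb library 1, where Lyve1, Mmrn1 and Pdpn were highest. Which heart cells gave the signals of Prox1, Lyve1, Mmrn1 and Pdpn was not tested. Endocardial genes (4 tested, among them Npr3, Cdh11, Cytl1 and Smoc1) had a mean deviation of 0.41 in T2D dnMCUb library 1 and of -0.17 to 0.10 in the other 5 libraries, and 0 of 4 were higher in T2D dnMCUb hearts than in T2D empty vector hearts without that library.

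**Figure D4:**
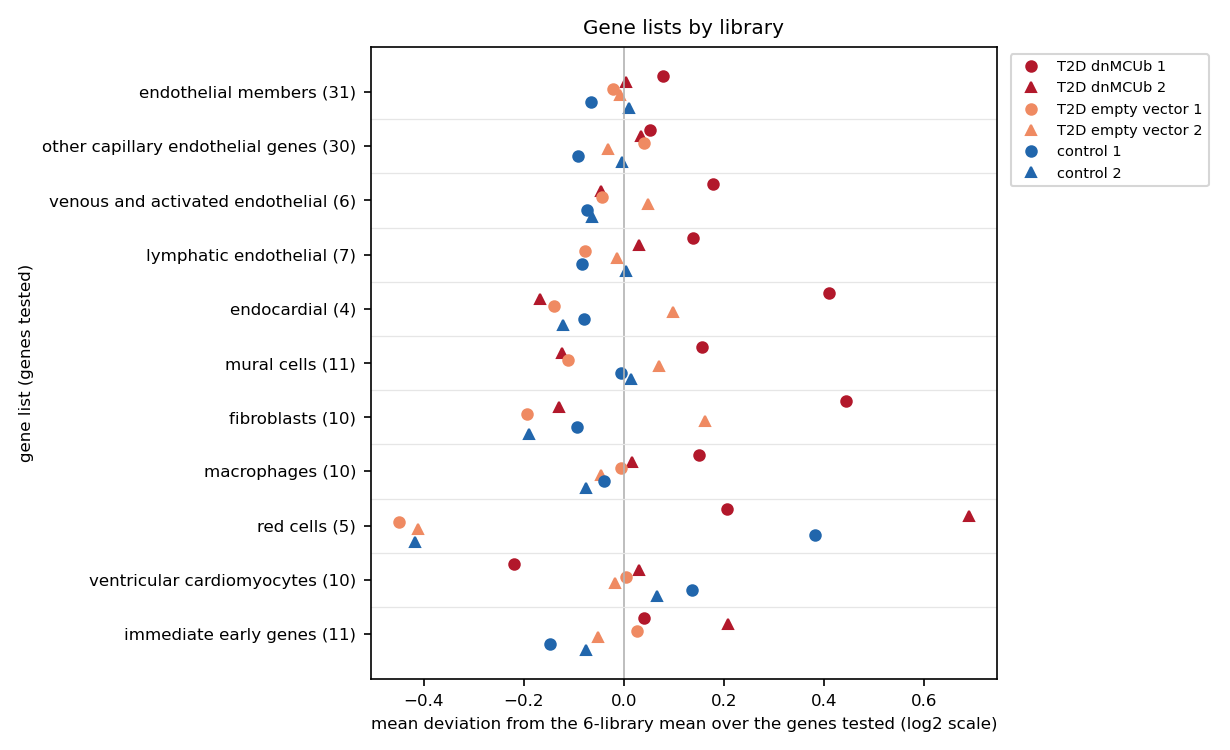
Mean deviation of each marker list from its 6-library mean, in log2 units, by library (circles for library 1, triangles for library 2). T2D dnMCUb library 1 stands to the right in the fibroblast, endocardial and endothelial lists and to the left in the cardiomyocyte list, and the red cell list splits the control libraries at 0.38 and -0.42.

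Markers of other heart cells also set T2D dnMCUb library 1 apart. All 10 fibroblast genes were higher in T2D dnMCUb than in control (median 0.28), with Gsn (0.37) and Pdgfra (0.22) at the smallest p values. The list had mean deviations of 0.44 and -0.13 in T2D dnMCUb hearts, -0.19 and 0.16 in T2D empty vector hearts and -0.09 and -0.19 in control hearts. All 10 ventricular cardiomyocyte genes were lower in T2D dnMCUb than in control (median -0.20, among them Myl3, Actc1, Tnni3, Tnnt2, Ryr2 and Ttn), with -0.22 and 0.03 in T2D dnMCUb hearts, 0.0042 and -0.02 in T2D empty vector hearts and 0.14 and 0.07 in control hearts. All 10 macrophage genes were higher in T2D dnMCUb hearts than in T2D empty vector hearts (median 0.08, or 0.04 with 7 of 10 higher without library 1), with C1qb and Cd163 at the smallest p values there and Adgre1 and Cd68 in T2D empty vector against control. Of 11 mural cell genes, 5 were higher in T2D dnMCUb hearts than in T2D empty vector hearts, and 2 of 11 were without T2D dnMCUb library 1. Notch3 (-0.13) and Acta2, a smooth muscle actin (0.31), had the smallest p values there, and Abcc9 (-0.20) and Des (-0.19) had them in T2D dnMCUb against control. Abcc9 and Des were highest in control library 1 and lowest in T2D dnMCUb library 1. Of the cardiomyocyte genes named, so were Tnni3, Tnnt2 and Ttn, but not Myl3, Actc1 and Ryr2. The part of heart muscle in the values of Abcc9 and Des was not tested. The mean deviation of the mural list ran from -0.12 to 0.16 over the libraries. In these lists, 0 genes were called in any comparison. Dpt was at 0.27 in T2D dnMCUb against T2D empty vector. Without T2D dnMCUb library 1 the median between T2D dnMCUb and control was 0.0018 for fibroblasts (5 of 10 higher), -0.07 for cardiomyocytes (1 of 10 higher) and 0.06 for macrophages (9 of 10 higher). The part of cell makeup in the endothelial values was not tested.

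Leukocyte and platelet markers were mostly below the filter. Only Ptprc and Pf4, of 10, were tested, at 0.19 and 0.13 in T2D dnMCUb against control, and the T cell gene Cd3e (1.23 to 1.24) and the B cell gene Cd79a (1.66 to 1.69) lay near the bottom of the scale. Atrial genes (4 tested, with Nppa and Sln) stood at a mean deviation of 1.34 in T2D dnMCUb library 1 and 0.70 in control library 1, against -0.62 to -0.41 in the other libraries.

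The endothelial genes varied together to differing degrees. Pearson's r of each gene with the mean of the other 30 over 6 libraries had a median of 0.70, with 19 of 31 above 0.5, against 22.4% of all genes above 0.5 with the profile of the 31. It was highest for Pecam1 (0.92), Ramp2 (0.91) and Mmrn2 (0.90) and below 0 for Kdr (-0.31), Robo4 (-0.08) and Cldn5 (-0.02). Vwf (0.47), Klf2 (0.29) and Aqp1 (0.27), which had the largest differences, followed the common profile less closely than Pecam1 did. The genes outside the list with the highest r were Dvl2 (0.99), Abi3 (0.99), Slc26a2 (0.99), Rasa3 (0.99) and Tmod3 (0.98). All these r values share the same 6 libraries and the extreme library 1 of T2D dnMCUb, and they are given as a description with no test.

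**Figure D5:**
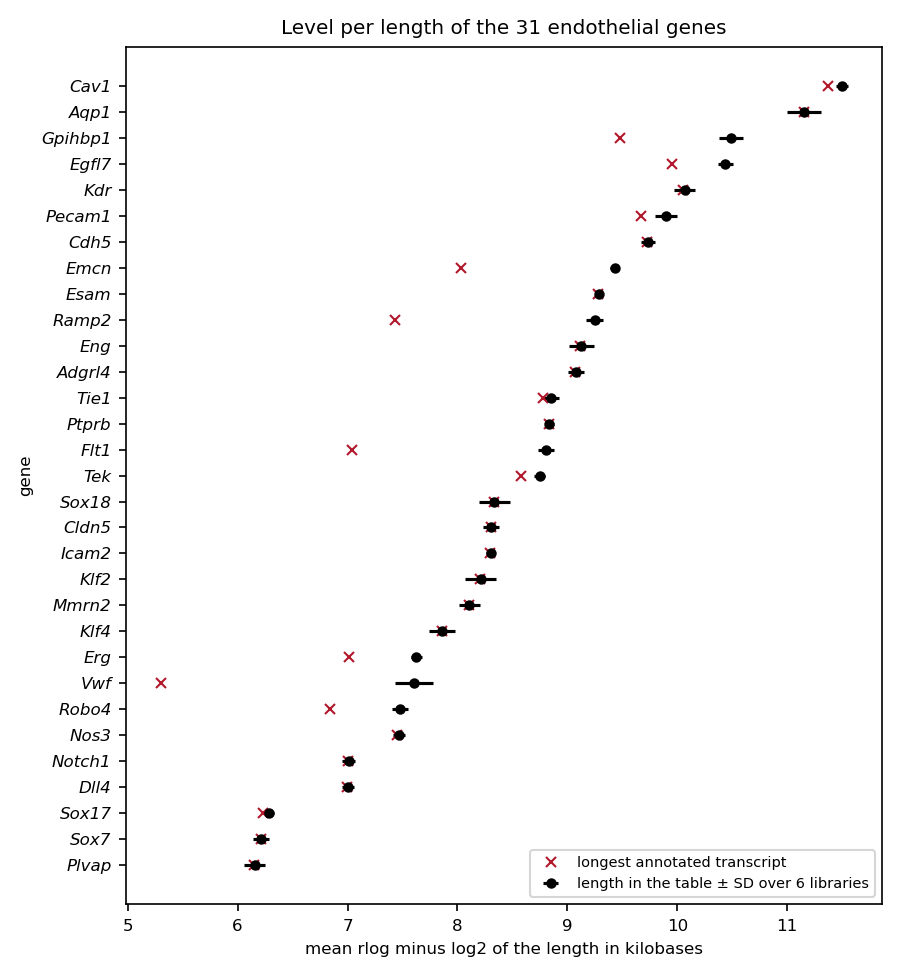
Mean rlog minus log2 of the length in kilobases for the 31 endothelial genes, with the length given in the table (circles, with the SD over 6 libraries) or that of the longest annotated transcript (crosses). Cav1 and Aqp1 are highest with either length, while Gpihbp1, Flt1, Ramp2, Emcn and Vwf are among those that change rank with the length used.

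Per length, Cav1 and Aqp1 were the most abundant of the 31, at levels (rlog minus log2 of kilobases) of 11.50 ± 0.05 and 11.15 ± 0.15 (SD over 6 libraries). Gpihbp1 (10.49 ± 0.11) and Egfl7 (10.44 ± 0.07) followed and did not differ beyond their spread with the lengths in the table. With the longest transcript Gpihbp1 was at 9.48 and Egfl7 at 9.95, and Kdr (10.05) was then above both. Kdr (10.07 ± 0.10), Pecam1 (9.90 ± 0.10) and Cdh5 (9.73 ± 0.07) came next. Sox17 (6.28), Sox7 (6.21) and Plvap (6.15) were the lowest. The row was the longest annotated transcript for 18 of 31 genes, and with the longest transcript Vwf dropped to the lowest place, at 5.30 per kilobase on the log2 scale against 7.61 with the row's length. The spread of these levels between genes was far wider than any difference between groups.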

How the data were processed

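Total RNA of mouse heart tissue was depleted of ribosomal RNA and made into 6 stranded libraries, per the labels' protocols. The authors deposited 1 table with regularized log values on a log2 scale per gene and library, with their log2 fold changes, p-values and adjusted p-values. Named tools, per the submitters' processing notes, were DESeq2, STAR (version 2.5.2a) and bcl2fastq (version 2.20.0.422), with the builds GRCm38, mm10 and hg38 and no role given. Counter, strand setting and read totals are missing from the sources used here, so depth is unknown. The regularized log moves values towards the mean of each gene: among genes called by the authors, its differences were a median 0.463 to 0.577 of their deposited log2 folds.

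Genes with a mean value of at least 5 (13094 of 54352) were fitted in limma (version 3.58.1, R version 4.3.3) using a term per group over all 6 libraries, a mean-variance trend and Benjamini-Hochberg adjustment at 0.05. The fit had 3 residual degrees of freedom and 4.6 prior ones. An exact permutation test of 2 against 2 libraries cannot give a p below 0.333 and was not used. The fit was tested on simulated data. No set test was run. The 31 genes and the marker lists were chosen with earlier results of these data known. Values in every library are given for the up to 3 genes per direction with the smallest p in each comparison and for Pecam1, Cdh5, Kdr and Tie1, with further ones added after their values were seen. From each other list, the up to 2 genes with the smallest p in each comparison are named. Alternatives were other filters, no trend, a robust fit, 2-group fits, median centring, quantile normalization, a replicate block and leaving out each library. Transcript lengths came from GENCODE M21 and promoters from RefSeq, read with Python 3.11.15.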

Additional observations from a re-analysis of the deposited data

How the results depend on the processing

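Alternative values for named genes numbered 653 (T2D empty vector against control), 652 (T2D dnMCUb against T2D empty vector) and 749 (T2D dnMCUb against control). Of these, 645, 644 and 723 kept direction and side of the threshold, 8, 8 and 7 reversed, and 0, 0 and 19 newly passed it. Several settings (filters, trend, robust fit, 2-group fits, replicate blocks, leaving out an uncompared library) cannot change a difference. Direction could change only with median centring, quantile normalization or a compared library left out, so these counts do not measure its stability. The uncounted endothelial median reversed without control library 1 (T2D empty vector against control) or T2D dnMCUb library 1 (T2D dnMCUb against T2D empty vector). The number of genes called between T2D dnMCUb and control was 9, and 14 with a mean level of at least 3, 29 with at least 7, 49 with robust empirical Bayes and 0 with no filter, no trend, the 2 groups alone, quantile normalization or the replicate block. Replicate numbers did not pair libraries: deviations correlated at -0.51 between T2D dnMCUb and T2D empty vector, -0.01 between T2D dnMCUb and control and -0.09 between T2D empty vector and control. The replicate block called 0 genes in each comparison, and crossed numbers, chosen after seeing the data, called 33 between T2D dnMCUb and control. Between T2D empty vector and control the 2 groups alone called 30 genes, against 0. The cause of these shifts was not tested.

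Leaving out 1 library at a time gave 0 to 743 genes between T2D dnMCUb and control, with 0 to 3 endothelial genes (743 and 3 without T2D dnMCUb library 2), 0 to 14 between T2D dnMCUb and T2D empty vector (14 without T2D dnMCUb library 1) and 0 to 30 between T2D empty vector and control (30 without either T2D dnMCUb library). The median over the 31 genes ran from 0.0081 to 0.10, from -0.00034 to 0.078 and from -0.01 to 0.06, in the same order. These genes reversed only under that setting. Between T2D dnMCUb and T2D empty vector the ranges were -0.10 to 0.72 for Acta2, -0.11 to 0.49 for Cdh11, -0.042 to 0.59 for Dpt, -0.030 to 0.20 for Pecam1, -0.00044 to 0.11 for Ptprc, -0.058 to 1.38 for Sln, -0.074 to 0.25 for Smoc1 and -0.063 to 0.0059 for Sox17. Between T2D dnMCUb and control they were -0.15 to 0.018 for Cdh5, -0.14 to 1.05 for Cytl1, -0.73 to 0.12 for Nppa, -0.42 to 1.02 for Sln, -0.15 to 0.27 for Sox18 and -0.068 to 0.14 for Tie1. Between T2D empty vector and control they were -0.11 to 0.057 for Cdh5, -0.11 to 0.43 for Cytl1, -0.0018 to 0.21 for Eng, -0.037 to 0.12 for Pf4, -0.81 to 0.10 for Sln and -0.11 to 0.10 for Tie1. With 2 libraries a group and depth unknown, differences of the size seen in most endothelial genes were not separable from library spread.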
